A study of Homo sapiens with 6 samples.

Results

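The members are the probe sets that read cytosolic heat shock proteins, their cochaperones and the transcription factor HSF1 in MDA-MB-231 cells, an established line from a human breast tumour of the triple-negative class. They were taken by symbol: every probe set that the platform annotation assigns to HSPB1, HSPB8, DNAJA1, DNAJB1, HSPA8, HSPA4, HSPH1, HSP90AA1, BAG3 or HSF1 and to no other gene. This gave 21 of 54675 probe sets, for 9 of the 10 symbols. All 4 probe sets that list HSPA8, the constitutive HSP70, also list a pair of small nucleolar RNA genes, so HSPA8 has no member and is not described. The number of member probe sets per gene was 1 for HSPB1 and BAG3, 2 for HSPB8, DNAJA1, DNAJB1 and HSF1, 3 for HSPH1 and 4 for HSPA4 and HSP90AA1. All 21 passed the filter on dim signals on all 6 arrays, so none was chosen through the group in which it was brighter.

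Messenger RNA was measured on 1-colour arrays in 3 samples that stably express a short hairpin RNA against MYOSIN10 (the gene MYO10) and 3 that stably express a scramble hairpin, all grown in L-15 medium with serum. Both groups therefore carry a hairpin construct, and no cells without one are among the samples. The labels do not say whether the samples are separate cultures or clones, so every p-value here measures only how far these samples spread, and that spread may be technical. In bulk RNA, fewer cells with a message and less message per cell cannot be told apart. The labels report no heat or other stress treatment. Levels below are log2(signal + 16), and differences are MYOSIN10 shRNA minus scramble shRNA on that log2 scale.

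Cytosolic chaperones keep newly made and damaged proteins from clumping and help them fold. Small heat shock proteins hold unfolded proteins, J proteins deliver them to HSP70 and drive its ATP cycle, HSP110 proteins and BAG proteins make HSP70 let go of its nucleotide, and HSP90 completes the folding of kinases and receptors. HSF1 is the main transcription factor of the heat shock response. It binds inverted repeats of GAA in the promoters of many of these genes when unfolded protein accumulates, and tumour cells often keep it partly active.

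The hairpin target, MYO10, had 5 kept probe sets, of which 4 were lower in the MYOSIN10 shRNA arrays and 1 passed. The one that passed, the brightest, stood at 11.57, 11.96 and 11.86 on scramble arrays 1 to 3 and at 10.71, 11.39 and 10.65 on MYOSIN10 shRNA arrays 1 to 3 (difference -0.88 ± 0.17 SE, limma, Benjamini-Hochberg adjusted p = 0.0318). Another 3 gave -0.74, -0.58 and -0.84 (limma adjusted p = 0.0514, 0.163 and 0.126), and the groups overlapped in the one at -0.84. The last gave 0.31, also with overlapping groups (limma adjusted p = 0.647). Of 33370 kept probe sets, 353 (1.06%) passed at an adjusted p under 0.05, 231 higher and 122 lower. That number depended on single arrays. It was 1466 when scramble array 2 was dropped and 1655 when both arrays numbered 2 were dropped. It was 59 or 78 after dropping scramble array 1 or 3, and 71 or 110 after dropping MYOSIN10 shRNA array 1 or 3. The MDA-MB-231 markers VIM, CD44, EGFR, CAV1 and AXL passed the filter, with 0 of 5 called (limma) and 0 at an unadjusted p under 0.05. PGR and CDH1, which this line lacks, stayed below the filter, as did the leukocyte marker PTPRC and the endothelial marker VWF. ESR1, also a gene the line is known to lack, passed the filter at 6.62 to 7.33. The markers of other cell types CD3E, PECAM1, COL1A1 and DCN passed it too, and 0 of these 4 were called (limma, 0 at an unadjusted p under 0.05).

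None of the 21 member probe sets passed over all kept probe sets (0 called, limma with Benjamini-Hochberg adjustment, 4 at an unadjusted p under 0.05; smallest adjusted p = 0.1), where 1.06% of all kept probe sets did, 0.692% higher and 0.366% lower. The unadjusted share was 13.2% of all kept probe sets. At an unadjusted p under 0.05 there were 3 higher, those of HSPB8, HSPB1 and DNAJB1, and 1 lower, of HSPA4, against 6.72% and 6.44% of all kept probe sets. In 4 of 21 (19.05%) all 3 MYOSIN10 shRNA arrays lay above all 3 scramble arrays, against 9.18% of all kept probe sets (18.1% in either direction). Those 4 belong to HSPB8, HSPB1 and DNAJB1, 2 of them read the same gene, and all 4 carry the suffix _s_at. Members with the plain suffix _at gave -0.068 (HSPB8), -0.33 (HSPA4), 0.16 (DNAJA1), 0.11 (HSPH1), 0.046 (HSP90AA1) and 0.11 (HSF1). The members were not refitted without _s_at and _x_at probe sets. In 1 of 21 all 3 MYOSIN10 shRNA arrays lay below, against 8.94%. Differences were positive in 18 of 21 (85.7%) with a median of 0.092, beside 49.7% and a median of -0.002 over all kept probe sets. Without scramble array 1 the count was 13 of 21 and the median 0.030. The count and median were 15 of 21 and 0.065 without MYOSIN10 shRNA array 2, and 15 of 21 and 0.096 after quantile normalization. Without scramble array 2 they were 19 of 21 and 0.20, and 9 probe sets in place of 4 had all MYOSIN10 shRNA arrays above. The median was also 0.15 without MYOSIN10 shRNA array 3, and 6 probe sets lay above without that array or without scramble array 3. Taking the brightest probe set of each gene, 9 of 9 differences were positive, against 51.8% of genes. The members were chosen with earlier results of these data known, so neither share of positive differences beside the background is a test. In that fit 0 of 9 were called (limma), beside 1.62% of genes. At an unadjusted p under 0.05 there were 3 higher and 0 lower, beside 8.49% and 6.39% of genes (14.9% in all). The groups were apart in 3 of 9, all higher, beside 19.8% of genes, 11.2% higher and 8.56% lower. The count of positive differences was 5 of 9 without scramble array 1, 7 of 9 without MYOSIN10 shRNA array 2 and 8 of 9 after quantile normalization.

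**Figure D1:**
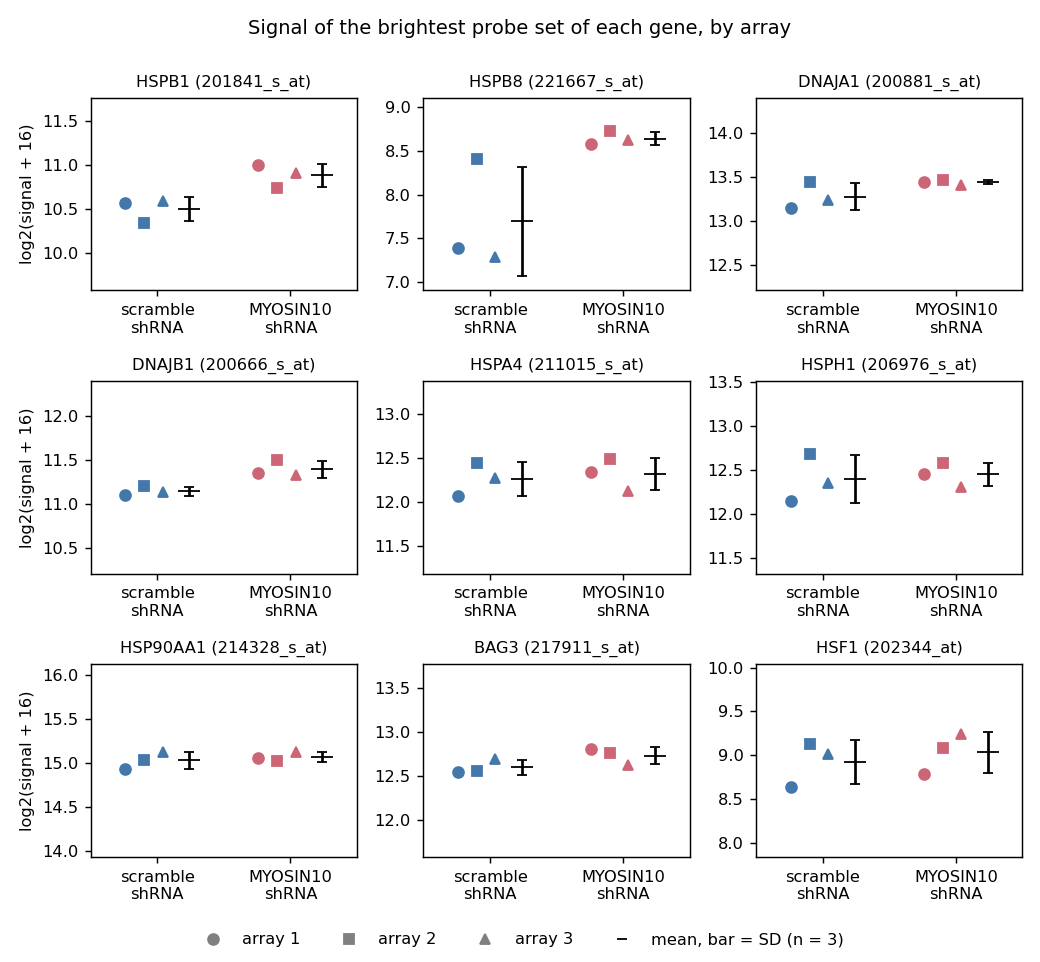
Log2(signal + 16) of the brightest probe set of each of the 9 genes on each array, with the group mean and SD (n = 3); all panels span the same range of log2 units. HSPB1, HSPB8 and DNAJB1 have all MYOSIN10 shRNA arrays above all scramble arrays, and scramble array 2 of HSPB8 (8.41) lies close to the MYOSIN10 shRNA arrays.

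HSPB8, a small heat shock protein that works with BAG3 to send misfolded proteins to autophagy, showed the largest difference among the members. Its brighter probe set, 221667_s_at, read 7.39, 8.41 and 7.29 on scramble arrays 1 to 3 and 8.57, 8.72 and 8.62 on MYOSIN10 shRNA arrays 1 to 3. The groups did not overlap, but scramble array 2 was more than 1 log2 unit above the other scramble arrays, by 1.07 over their mean. The difference was 0.94 ± 0.25 (SE), 1.92-fold, with a 95% interval from 0.41 to 1.48 (limma adjusted p = 0.1). Without scramble array 2 it was 1.30 (limma adjusted p = 0.000795), and HSPB8 then passed. It also passed without both arrays numbered 2 (1.26, limma adjusted p = 0.00185), but not when any other single array was left out, with adjusted p from 0.204 to 0.371. The dimmer probe set, 233057_at, did not follow. It read 6.62, 7.15 and 6.96 with scramble shRNA and 7.17, 6.88 and 6.49 with MYOSIN10 shRNA, a difference of -0.068 ± 0.25 (SE, limma adjusted p = 0.944), and the groups overlapped. The 95% interval of the dimmer probe set, -0.60 to 0.47, meets that of the brighter one, but each estimate lies outside the other's interval. Whether the 2 probe sets differ was not tested.

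HSPB1, also called HSP27, is a small heat shock protein that holds unfolded proteins and binds actin and intermediate filaments. It read 10.57, 10.34 and 10.59 with scramble shRNA and 11.0, 10.74 and 10.91 with MYOSIN10 shRNA. Every MYOSIN10 shRNA array was above every scramble array, and array 2 was the lowest of its group in both. The difference was 0.38 ± 0.11 (SE), 1.31-fold, with a 95% interval from 0.15 to 0.61 (limma adjusted p = 0.12). With 1 array left out the difference ran from 0.30 to 0.45. HSPB1 passed without both arrays numbered 2 (0.38, limma adjusted p = 0.0357), but not without any single array (adjusted p from 0.0981 to 0.396). With 1 probe set, HSPB1 has no second reading on this array.

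DNAJB1, or HSP40, is the J protein most tightly tied to heat shock and a partner of HSP70 in pulling apart aggregates. Its brighter probe set read 11.10, 11.21 and 11.14 with scramble shRNA and 11.35, 11.51 and 11.33 with MYOSIN10 shRNA. The dimmer one read 10.32, 10.44 and 10.45 against 10.64, 10.65 and 10.5. In both probe sets every MYOSIN10 shRNA array was above every scramble array. The differences were 0.25 ± 0.087 and 0.19 ± 0.095 (SE, limma adjusted p = 0.234 and 0.419), with 95% intervals of 0.058 to 0.44 and -0.014 to 0.40. Neither passed in any alternative setting that was run.

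DNAJA1, a J protein that carries clients to HSP70 and steadies newly made receptors and mutant p53, had 2 probe sets with nearly the same profile. The brighter read 13.14, 13.44 and 13.24 with scramble shRNA and 13.45, 13.47 and 13.41 with MYOSIN10 shRNA. The other read 12.13, 12.44 and 12.24 against 12.42, 12.42 and 12.43. In each, the MYOSIN10 shRNA arrays lay close together and scramble array 2 lay among them in the brighter and just above them in the other, while scramble arrays 1 and 3 were lower. The differences were 0.17 ± 0.082 and 0.16 ± 0.087 (SE, limma adjusted p = 0.411 and 0.484). Without scramble array 2 the groups no longer overlapped, with differences of 0.25 (limma adjusted p = 0.0796) and 0.24 (0.114), and neither passed.

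**Figure D2:**
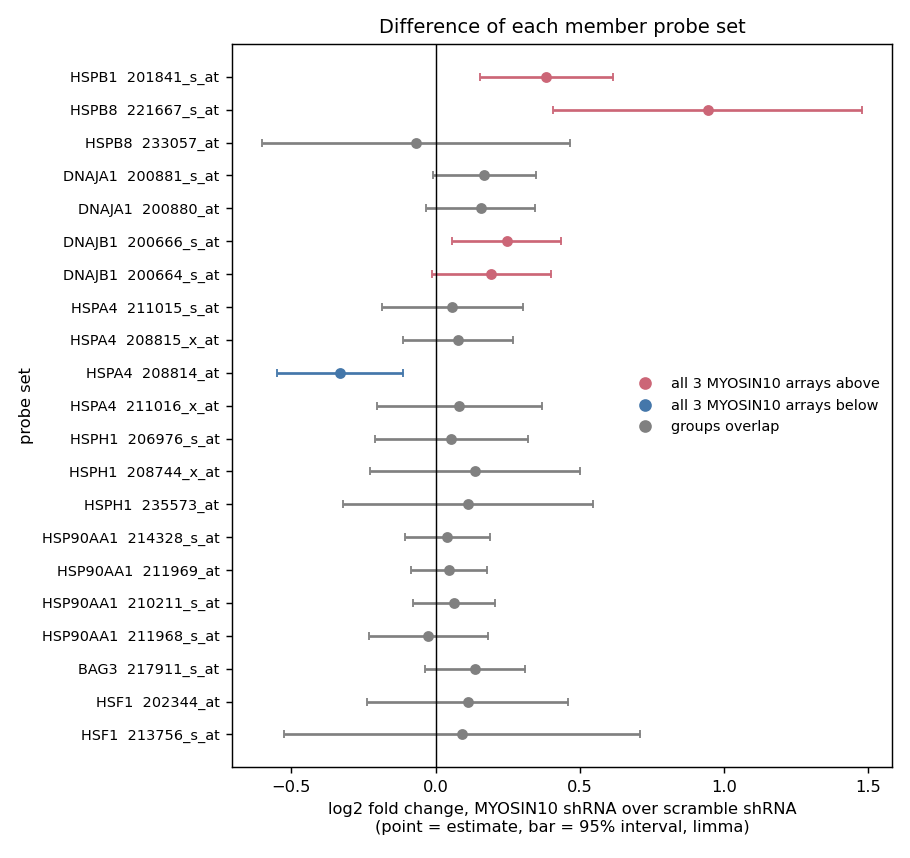
Log2 fold change of each of the 21 member probe sets, MYOSIN10 shRNA over scramble shRNA, with its 95% interval from limma; colour marks whether all 3 MYOSIN10 shRNA arrays lay above, below or among the scramble arrays. HSPB8 gives 0.94 with 1 probe set and -0.068 with the other, and HSPA4 gives -0.33 with 1 probe set while its other 3 lie between 0.058 and 0.083.

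HSPA4, a member of the HSP110 branch that acts as a nucleotide exchange factor for HSP70, gave readings that did not agree across probe sets. Probe set 208814_at read 10.11, 10.07 and 10.19 with scramble shRNA and 9.78, 9.72 and 9.88 with MYOSIN10 shRNA. All 3 MYOSIN10 shRNA arrays were below the scramble arrays, a difference of -0.33 ± 0.10 (SE), with a 95% interval from -0.55 to -0.11 (limma adjusted p = 0.163). Over the alternatives adjusted p ran from 0.0836 to 0.427. The brightest, 211015_s_at, read 12.07, 12.44 and 12.27 against 12.34, 12.49 and 12.12, with overlapping groups and a difference of 0.058 ± 0.11 (SE, limma adjusted p = 0.881). The remaining HSPA4 probe sets carry the suffix _x_at, by which the maker marks probes that may also match other transcripts. They gave 0.078 and 0.083 (limma adjusted p = 0.776 and 0.849), again with overlap. Each of these 3 differences was smaller than its SE, and the sign of the brightest turned without scramble array 1 (-0.039) or MYOSIN10 shRNA array 2 (-0.029).

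HSPH1, the heat-inducible HSP110 that reloads HSP70 and helps take apart aggregates, varied more between arrays than between groups. Its brightest probe set read 12.15, 12.69 and 12.35 with scramble shRNA and 12.46, 12.58 and 12.31 with MYOSIN10 shRNA. The second read 10.26, 10.97 and 10.42 against 10.61, 10.95 and 10.5, and the third 7.55, 7.91 and 7.32 against 7.67, 7.96 and 7.49. In all 3, array 2 was the highest of its group in both groups, and the groups overlapped. The differences were 0.054 ± 0.12, 0.14 ± 0.17 and 0.11 ± 0.20 (SE, limma adjusted p = 0.902, 0.799 and 0.868). The widest of the 95% intervals ran from -0.32 to 0.54, so changes of that size were not resolved with 3 arrays a group.

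HSP90AA1, the stress-inducible cytosolic HSP90, showed the smallest differences. Its 4 probe sets gave 0.040, 0.046, 0.062 and -0.025, each smaller than its SE of 0.061 to 0.095, and limma adjusted p ran from 0.755 to 0.946. The brightest read 14.93, 15.03 and 15.13 with scramble shRNA and 15.06, 15.02 and 15.12 with MYOSIN10 shRNA, and in all 4 the groups overlapped. The 95% intervals of the 4 lay between -0.23 and 0.20.  After quantile normalization all 4 were negative, from -0.055 to -0.0067, and the brightest gave -0.036.

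BAG3, the cochaperone that links HSP70 to small heat shock proteins and to autophagy and is known to be induced by HSF1, read 12.54, 12.55 and 12.69 with scramble shRNA. With MYOSIN10 shRNA it read 12.80, 12.76 and 12.63. Scramble array 3 lay above MYOSIN10 shRNA array 3, so the groups overlapped. The difference was 0.14 ± 0.079 (SE), with a 95% interval from -0.036 to 0.31 (limma adjusted p = 0.504), and it stayed positive in all 18 alternatives, from 0.099 to 0.19. HSF1 itself, whose activity is set mainly on the protein and not by its message, read 8.64, 9.12 and 9.01 against 8.78, 9.08 and 9.24. The groups overlapped, with a difference of 0.11 ± 0.16 (SE, limma adjusted p = 0.832). The second HSF1 probe set was dim, at 5.89 to 6.52, and gave 0.092 ± 0.28 (SE, limma adjusted p = 0.932).

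The arrays numbered 2 shared a pattern in these genes that the groups did not explain. Array 2 was the highest of its group in both groups in 10 of 21 member probe sets (47.6%), against 16.03% of all kept probe sets, and the lowest in both in 2 of 21 (9.52%), against 16.5%. This count was made after the values were seen and carries no test. All 3 probe sets of HSPH1 are among the 10, with array 2 above the mean of arrays 1 and 3 by 0.44, 0.62 and 0.47 with scramble shRNA and by 0.20, 0.39 and 0.38 with MYOSIN10 shRNA. Another 3 are those of HSPA4 that did not separate the groups, with departures of 0.23 to 0.40 and 0.093 to 0.26. The rest are single probe sets of HSPB8, DNAJA1, DNAJB1 and HSP90AA1. Several of the 10 thus read the same gene and are not separate readings of the pattern. HSPB1 went the other way, at -0.24 and -0.21, as did 208814_at of HSPA4, at -0.081 and -0.11. For each HSPH1 probe set the departure of array 2 was larger in both groups than the difference between groups. The labels do not say that equal numbers mark a shared day or batch, and the part of such a batch in the values was not tested.

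**Figure D3:**
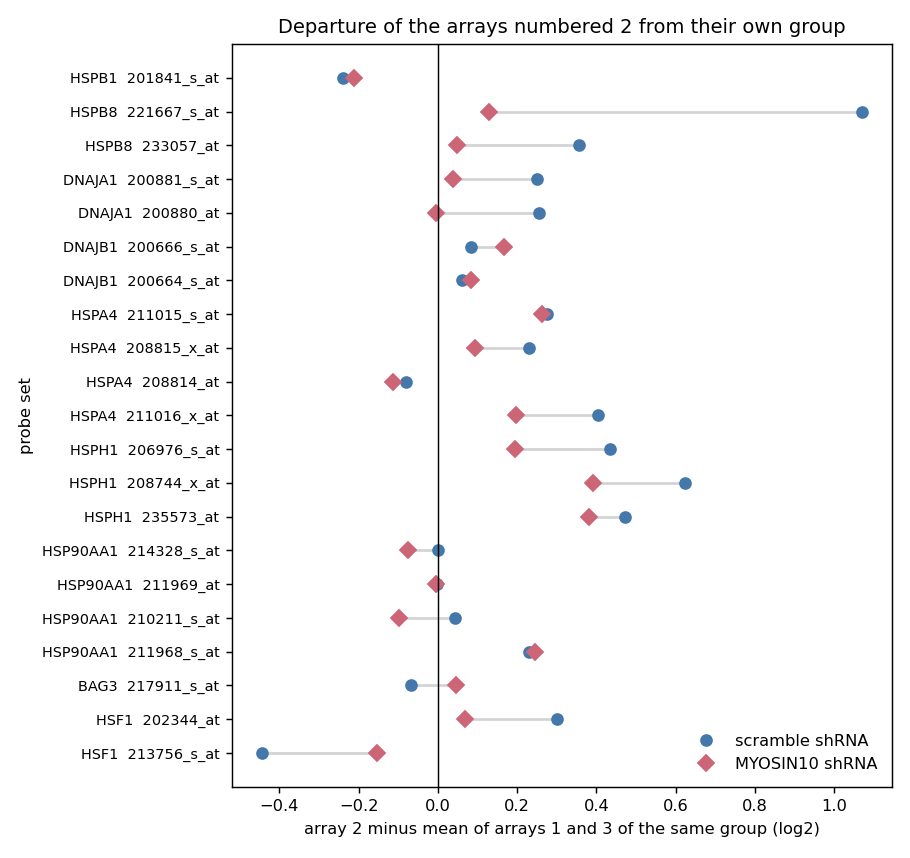
For each member probe set, the log2 signal of array 2 minus the mean of arrays 1 and 3 of the same group, for scramble shRNA (circles) and MYOSIN10 shRNA (diamonds). Both symbols lie right of 0 for all 3 HSPH1 probe sets and left of 0 for HSPB1, and the scramble value of the brighter HSPB8 probe set, 1.07, is the farthest from 0.

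The promoters are shown because several of these genes are textbook targets of HSF1 and because the groups were apart, with MYOSIN10 shRNA higher, in HSPB8, HSPB1 and DNAJB1. The groups were also apart in 1 probe set of HSPA4, with MYOSIN10 shRNA lower, and no HSPA4 sequence is shown because its window held no match. RefSeq windows (GRCh38.p14) of 300 bases, from 250 before each transcription start to 50 after it, matched 8 of the 9 genes with 11 start sites; HSF1 had none. A 2-unit heat shock element was searched as GAANNTTC or TTCNNGAA, each of which is its own reverse complement, so both strands are covered. At least 1 match lay in windows of HSPB1, HSPB8, DNAJA1, DNAJB1 and HSP90AA1, 6 of the 11 windows, against 13.5% of all 35116 windows. A 3-unit element, GAANNTTCNNGAA or its reverse complement TTCNNGAANNTTC, which contains overlapping 2-unit matches, lay in 2 of the 11, against 0.49%. The 250 bases before the start are given 5′ to 3′ on the strand of the gene, with 2-unit matches in capitals.
HSPB8 (chr12:119178681-119178930, + strand): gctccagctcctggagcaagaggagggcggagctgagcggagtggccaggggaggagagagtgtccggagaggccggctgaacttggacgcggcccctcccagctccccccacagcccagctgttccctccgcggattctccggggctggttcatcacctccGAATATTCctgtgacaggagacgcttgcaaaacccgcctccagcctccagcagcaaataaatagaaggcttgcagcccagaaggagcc
HSPB1 (chr7:76302423-76302672, + strand): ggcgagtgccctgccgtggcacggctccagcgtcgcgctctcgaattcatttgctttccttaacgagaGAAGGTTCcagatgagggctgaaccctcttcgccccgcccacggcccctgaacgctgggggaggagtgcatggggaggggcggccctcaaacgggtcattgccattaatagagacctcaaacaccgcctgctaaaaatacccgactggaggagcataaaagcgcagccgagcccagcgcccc
DNAJB1, second of 3 start sites (chr19:14518398-14518647, - strand): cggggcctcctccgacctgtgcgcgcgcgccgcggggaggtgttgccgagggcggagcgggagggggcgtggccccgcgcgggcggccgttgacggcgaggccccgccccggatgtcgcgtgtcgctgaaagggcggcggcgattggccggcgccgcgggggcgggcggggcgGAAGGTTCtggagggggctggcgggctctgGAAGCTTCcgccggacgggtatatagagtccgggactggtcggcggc
HSP90AA1, second of 2 start sites (chr14:102087045-102087294, - strand): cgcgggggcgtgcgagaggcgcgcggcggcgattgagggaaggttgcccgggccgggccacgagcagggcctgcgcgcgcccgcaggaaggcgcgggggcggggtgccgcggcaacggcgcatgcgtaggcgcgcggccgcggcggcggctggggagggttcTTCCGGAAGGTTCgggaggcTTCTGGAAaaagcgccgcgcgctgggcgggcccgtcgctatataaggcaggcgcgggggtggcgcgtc
DNAJA1 (chr9:33025023-33025272, + strand): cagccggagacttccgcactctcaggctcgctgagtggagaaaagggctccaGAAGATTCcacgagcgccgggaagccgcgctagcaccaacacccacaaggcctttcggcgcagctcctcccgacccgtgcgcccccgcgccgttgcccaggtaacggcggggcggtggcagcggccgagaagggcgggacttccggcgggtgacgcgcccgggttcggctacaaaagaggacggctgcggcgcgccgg

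Counted from 1 at the 5′ end of the window, the matches of HSPB8 began at positions 163 and, after the start, 255, and that of HSPB1 at position 69. DNAJB1 had matches at 174 and 204, and HSP90AA1 had its 3-unit element, TTCCGGAAGGTTC, at 163 and a further 2-unit match at 183. DNAJA1 had a match at 53 and its 3-unit element, GAACTTTCCAGAA, at 254, just after the start. The windows of HSPA4, HSPH1 and BAG3 held no match to these letters. A match describes the letters alone, the arrays do not tell which start site was used, and no relation of matches to differences was tested. By brightest probe set, the genes with a match differed by 0.94 (HSPB8), 0.38 (HSPB1), 0.25 (DNAJB1), 0.17 (DNAJA1) and 0.040 (HSP90AA1). Those without differed by 0.14 (BAG3), 0.058 (HSPA4) and 0.054 (HSPH1). The exact letters TATAAA (or TTTATA) were in 0 of the 11 windows, against 11.5% of all, and CCAAT (or ATTGG) in 4, against 34.6%. TATA boxes spelled with other letters were not searched, so the count of 0 does not show that these promoters lack one.

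Among 55 other cytosolic chaperone genes tested, 2 were higher and 1 lower (limma, adjusted over 14174 genes), and the median difference was 0.047, against 0.0093 over all genes, of which 1.16% were called higher and 0.459% lower. DNAJC9, a J protein that is also a histone chaperone, rose most clearly. It read 12.19, 12.39 and 12.19 with scramble shRNA and 12.87, 12.86 and 12.88 with MYOSIN10 shRNA, a difference of 0.61 ± 0.077 (SE, limma adjusted p = 0.00277). Its second probe set gave 0.37 with the groups apart. DNAJC9 passed without any single array. BAG5, an exchange factor for HSP70, rose from 10.7, 10.78 and 10.7 to 11.21, 11.18 and 11.09, by 0.43 (limma adjusted p = 0.026), and its other probe sets gave 0.39 and 0.21. The J protein DNAJB6, a suppressor of protein aggregation, fell from 12.53, 12.64 and 12.65 to 12.08, 12.35 and 12.18, a difference of -0.40 (limma, adjusted p = 0.0418). The BAG5 call ended when scramble array 1 or 3 was dropped (limma adjusted p = 0.122 and 0.126), and likewise for MYOSIN10 shRNA arrays 1, 2 and 3 (0.155, 0.0632 and 0.0839). The DNAJB6 call ended when scramble array 1 or 3 (0.101 and 0.168) or MYOSIN10 shRNA array 1 or 3 (0.202 and 0.177) was dropped, after median centring (0.0634) or with no filter (0.0796). In the fit over all kept probe sets, from which the members were read, DNAJB6 did not pass either (0.0505). None of DNAJC9, BAG5 and DNAJB6 passed without the variance trend.

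The lists by role, also chosen with earlier results of these data known, gave few calls. Of 13 other J proteins, 5 differences were positive and 8 negative, with a median of -0.054 that ran from -0.14 to -0.021 with 1 array left out (scramble array 3 and scramble array 1). All 8 other HSP70 cochaperones were positive, with a median of 0.087, beside 51.8% of all genes, and of these only BAG5 was called. Without scramble array 1, 6 of 8 were positive with a median of 0.053, and without scramble array 2, 7 of 8 with a median of 0.14. The median was 0.057 without MYOSIN10 shRNA array 2. The HSP90 list of HSP90AB1 and 11 cochaperones had 9 positive, 0 called (limma, 2 at an unadjusted p under 0.05) and a median of 0.12, or 0.071 without scramble array 1. Its smallest p-values were those of FKBP4, an HSP90-bound immunophilin, at 0.26 (limma adjusted p = 0.173) and SUGT1 at 0.22 (0.29). A second FKBP4 probe set gave 0.23 with all MYOSIN10 shRNA arrays above (limma adjusted p = 0.38 over all kept probe sets). Dim FKBP4 probe sets gave -0.34 and 0.22, and 3 of the other 4 of SUGT1 were negative. Of 7 other HSP70 and HSP110 genes, 0 were called (limma, 2 at an unadjusted p under 0.05), with HSPA14 at -0.32 (limma adjusted p = 0.0954) and HSPA4L at 0.28 (0.295). Probe sets of HSPA14 disagreed, the others giving 0.18 and -0.18. The second HSPA4L probe set gave 0.23 with all MYOSIN10 shRNA arrays above (limma adjusted p = 0.424 over all kept probe sets). HSPA1A and HSPA1B, the classical inducible HSP70 genes, had no probe set assigned to either alone and are not described. The only small heat shock proteins tested besides the members were CRYAB at -1.02 ± 0.45 (SE, limma adjusted p = 0.323) and HSPB6 at -0.12 (0.916), both dim. CRYAB read 6.26, 6.56 and 6.08 with scramble shRNA and 6.32, 4.84 and 4.68 with MYOSIN10 shRNA, with overlapping groups. On MYOSIN10 shRNA arrays 2 and 3 it lay below the 40th percentile (5.66 and 5.56), so it passed the filter through the other arrays. HSBP1, a negative regulator of HSF1, gave 0.0073 with its brightest probe set and -0.25 with the other.

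**Figure D4:**
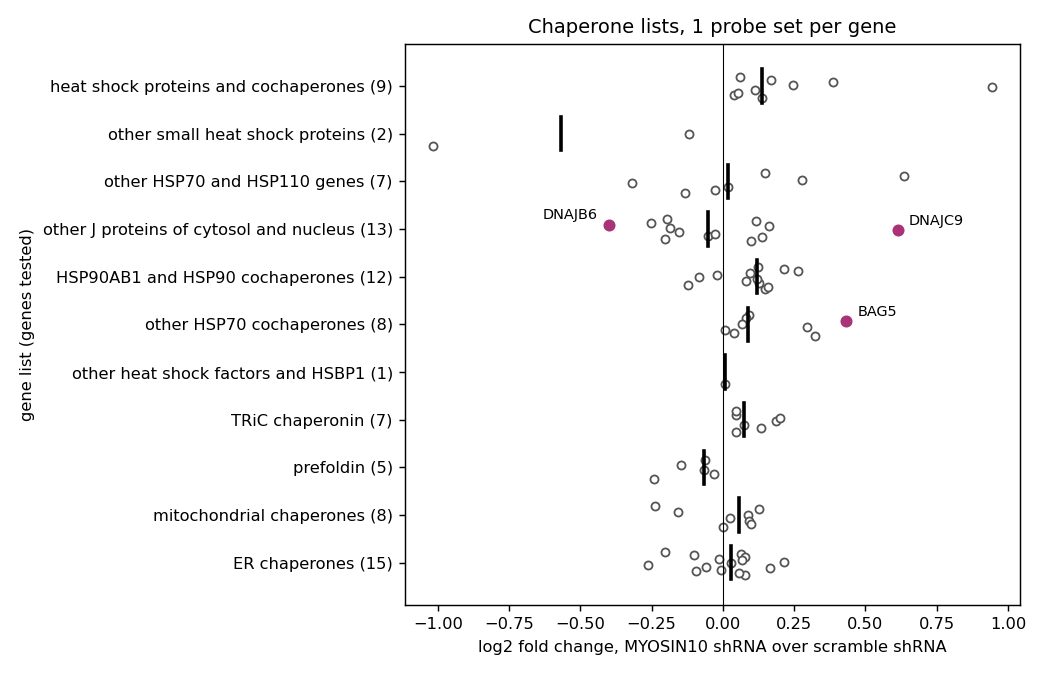
Log2 fold change of each gene tested, MYOSIN10 shRNA over scramble shRNA, for the 9 heat shock and cochaperone genes and 10 other chaperone lists, with the median as a bar and genes called by limma filled and named. All 9 members lie right of 0, and 3 of the 78 other genes, DNAJC9, BAG5 and DNAJB6, were called.

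Chaperones of other kinds and compartments differed little. All 7 subunits tested of TRiC, the chaperonin that folds actin and tubulin, were positive, with a median of 0.074, 0 called (limma, 0 at an unadjusted p under 0.05), CCT4 at 0.19 (limma adjusted p = 0.343) and CCT7 at 0.20 (0.455). All 5 subunits tested of prefoldin, which hands actin and tubulin to TRiC, were negative, with a median of -0.068, 0 called (limma, 1 at an unadjusted p under 0.05), PFDN1 at -0.24 (limma adjusted p = 0.334) and VBP1 at -0.15 (0.356). A second, dimmer CCT4 probe set gave 0.45 with the groups apart. Without scramble array 2, CCT4, CCT7 and PFDN1 passed, at 0.28, 0.35 and -0.37 (limma adjusted p = 0.0378, 0.0154 and 0.0227). SUGT1 (0.30, 0.0419) and DNAJB9 (-0.39, 0.0211) passed there too. The TRiC count was 5 of 7 positive with a median of 0.0044 without scramble array 1, and 6 of 7 without MYOSIN10 shRNA array 3. Without _s_at and _x_at probe sets, 5 of 6 TRiC subunits were positive and 3 of 4 prefoldin subunits negative. The prefoldin median was -0.12 without scramble array 3 and -0.13 without MYOSIN10 shRNA array 2. The TRiC median was 0.12 without scramble array 2. The 8 mitochondrial chaperones had 6 positive (4 after quantile normalization), a median of 0.055 and 0 calls (limma, 0 at an unadjusted p under 0.05), with DNAJC19 at -0.24 and GRPEL2 at -0.16. The 15 chaperones of the endoplasmic reticulum had 8 positive, a median of 0.028 and 0 calls (limma, 2 at an unadjusted p under 0.05), with the J proteins DNAJB9 at -0.26 and DNAJB11 at -0.20. After quantile normalization the last median was -0.0081.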

How the data were processed

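All 6 arrays were used, 3 per group, with groups and numbers taken from the sample titles. The submitters' processing notes name MAS5, and the deposited values are log2 signals per probe set. That scale was read from the values, since the 2% trimmed mean of the returned linear signals was nearly the same on all arrays. No MAS5 version is given in the sources used here. Deposited log2 values were raised to linear signals and taken as log2(signal + 16), which understates fold changes of dim probe sets. Probe sets at or above their array's 40th percentile on 3 or more arrays were kept, 33370 of 54675. The 59 control probe sets of the array that passed stayed in the fit. Arrays carry no read depth, and their number limits the precision.

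The test was two-sided limma 3.58.1 (R 4.3.3), by lmFit on group alone and eBayes with its variance trend, with Benjamini-Hochberg adjustment over all kept probe sets and a threshold of 0.05. Members were read from that fit. The other chaperone lists were read from the same model fitted on 1 probe set per gene, the brightest kept one, over 14174 genes. The rule for named genes took every member probe set, each called gene of another list and, in a list with no call, the 2 genes with the smallest p. The members and lists were chosen with earlier results of these data known. Symbols came from the platform annotation, updated by gene number through RefSeq (GRCh38.p14) for 41043 of 41097 probe sets with 1 symbol. Promoter windows came from RefSeq. The limma fit was tried on simulated data with independent normal noise, unlike the arrays numbered 2 here. That check was on the recovery and size of planted changes and set no limit on false calls. The other steps were not tested. Alternatives were the pseudocount, the filter, the scaling, the variance trend, weights per array, a block on replicate number, dropped arrays and 1 probe set per gene. Plots used matplotlib 3.10.9 under Python 3.11.15.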

Additional observations from a re-analysis of the deposited data

How the results depend on the processing

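The number of kept probe sets called was 353, and it was 173 with no filter, 0 without the variance trend (limma, 3665 at an unadjusted p under 0.05), 949 with array weights, 1655 without both arrays numbered 2 and 229 with 1 probe set per gene. Leaving out 1 array gave 59 to 1466. The number of member probe sets called was 0, and it was 1 with array weights (HSPB8), 2 without both arrays numbered 2 (HSPB8 and HSPB1) and 0 to 1 with 1 array left out. Calls among the other chaperone lists numbered 3, against 0 without the variance trend (limma adjusted p of DNAJC9 0.117), 9 without both arrays numbered 2, 0 without _s_at and _x_at probe sets (limma, 9 at an unadjusted p under 0.05), where the called genes had no probe set left, and 1 to 8 with 1 array left out. With the replicate number as a block, 891 probe sets, 2 member probe sets (HSPB8, adjusted p = 0.0214, and HSPB1, 0.0353) and 4 list genes were called. Deviations from the group means correlated at 0.033, 0.12 and 0.013 for numbers 1 to 3, and from -0.075 to 0.049 for arrays of unequal number. The labels do not say that equal numbers pair arrays, so the number was not treated as a pairing in the main fit, and a shared batch was not tested.

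Of the brightest probe sets of the 9 genes, 4 turned in sign. With 1 array left out, HSPA4 ran from -0.039 (without scramble array 1) to 0.16, with -0.029 without MYOSIN10 shRNA array 2. HSPH1 ran from -0.070 to 0.20, with -0.011 in the latter setting. HSP90AA1 ran from -0.011 to 0.090, and gave -0.036 after quantile normalization. HSF1 ran from -0.032 to 0.24. The cause was not tested. Beside those 7 values, 6 were newly past the threshold, all of HSPB8 or HSPB1, and 149 stayed on the same side. The control probe sets were left out as an alternative chosen after seeing the data, with no call changed among members or lists.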
